A study of Homo sapiens with 7 samples.

Results

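Loops whose anchor midpoints lay 1 Mb to 2 Mb apart were examined in H3K27ac HiChIP data from 3 human cancer cell lines. HiChIP joins DNA ends that lie together in the nucleus and then enriches the joined fragments with an antibody, here against acetylation of lysine 27 of histone H3, a mark of active promoters and enhancers. A loop was a pair of different anchors on 1 chromosome, and its value was the count of read pairs that joined them. All pairs in the span window were kept, with no choice by read pairs or gene: 4693 of 354783 loops, of which 376 of 163530 were in the Ishikawa list, 658 of 42027 in the T-47D list and 3659 of 149226 in the LNCaP list. These loops are called long loops here.

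Ishikawa (endometrial adenocarcinoma) was represented by 4 samples, of which 2 were given the vehicle DMSO and 2 were given 10 nM 17β-estradiol (E2), each for 1 h. T-47D (a breast cancer line) had 1 sample and LNCaP (prostate carcinoma) had 2 samples, and their labels give no treatment. All 3 lines were grown in RPMI medium with fetal bovine serum, and the methods move cells to hormone-depleted medium ahead of estrogen treatment, which applies to Ishikawa here. Ishikawa chromatin was cut with DpnII and the other chromatin with MboI, and sonication and read length differed in the same way. The medium of the T-47D and LNCaP cells used for HiChIP is not stated, so it may differ as well. The methods also give several times more raw read pairs per sample for Ishikawa than for the other lines. Wherever Ishikawa is set beside another line, cell line, medium, library preparation and sequencing cannot be told apart. The deposited list of a line pools all of its samples, so there is no replicate error for any value given, DMSO and E2 were not compared, and 95% Wilson intervals cover counting error only.

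The lists held 1040329 (Ishikawa), 351260 (T-47D) and 1805322 (LNCaP) read pairs in all loops on 1 chromosome, an order that does not follow the sequencing depth. The long loops held 1278, 3097 and 21803 of them, which is 0.123%, 0.882% and 1.21%. The labels were checked with genes typical of each tissue. Loops at the promoter of GATA3, a luminal breast transcription factor, held 1063 read pairs in the T-47D list, beside 7 for Ishikawa and 0 for LNCaP. Those of KLK3, which encodes prostate-specific antigen, held 2936 in the LNCaP list, beside 6 for Ishikawa and 0 for T-47D. Those of PAX8, a factor of the Müllerian tract, held 162 in the Ishikawa list and 0 elsewhere.

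In interphase chromatin, the cohesin complex extrudes loops that often end at sites bound by CTCF, and most contacts between enhancers and promoters fall within the domains formed in this way. Contact frequency falls steeply with distance. Contacts over a megabase are known at some developmental genes set in gene deserts, whose enhancers lie far from the promoter, and between distant regions in the same state of activity, such as gene clusters that share a nuclear body.

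The sequences below mark anchors that recur in the results. Matches to the CTCF core consensus, in capitals, were shown with 15 bases of flank because orientation was compared over all long loops, and coordinates refer to hg19 (GRCh37). The distal anchor of the strongest GATA3 loop of T-47D held 1 match. The anchor over the TBX3 promoter that carried the strongest LNCaP loop also held 1. The distal anchor of the only long loop found in all 3 lists by an overlap of 1 bp, near NAALADL2, held 2.
GATA3 distal anchor, chr10:9240355-9240396, plus strand: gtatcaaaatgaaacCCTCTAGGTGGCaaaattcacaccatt
TBX3 promoter anchor, chr12:115122239-115122280, plus strand: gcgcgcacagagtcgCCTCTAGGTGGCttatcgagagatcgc
NAALADL2 distal anchor, chr3:175658906-175658947, minus strand: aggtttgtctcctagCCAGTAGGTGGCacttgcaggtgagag
NAALADL2 distal anchor, chr3:175659401-175659442, minus strand: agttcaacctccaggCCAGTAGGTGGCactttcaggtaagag

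The promoters of 2 replication-dependent histone genes that share 1 anchor (chr6:27775000-27779217), the anchor with the most long partners in T-47D, were taken from RefSeq (GRCh38.p14). Each sequence runs from 250 bases before the gene's start. Capitals mark CCAAT and TATAAA on either strand, read as ATTGG and TTTATA on the opposite one. The promoter of H4C5, at the other end of the strongest T-47D histone loop, held neither and is not printed.
H3C10, chr6:27809801-27810100, plus strand: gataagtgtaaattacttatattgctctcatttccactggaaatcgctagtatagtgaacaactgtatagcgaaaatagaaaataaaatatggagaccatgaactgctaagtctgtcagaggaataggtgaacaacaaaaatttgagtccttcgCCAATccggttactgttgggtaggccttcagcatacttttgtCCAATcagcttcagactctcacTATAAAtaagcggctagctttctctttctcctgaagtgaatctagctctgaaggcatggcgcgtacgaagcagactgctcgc
H2AC13, chr6:27807923-27808222, plus strand: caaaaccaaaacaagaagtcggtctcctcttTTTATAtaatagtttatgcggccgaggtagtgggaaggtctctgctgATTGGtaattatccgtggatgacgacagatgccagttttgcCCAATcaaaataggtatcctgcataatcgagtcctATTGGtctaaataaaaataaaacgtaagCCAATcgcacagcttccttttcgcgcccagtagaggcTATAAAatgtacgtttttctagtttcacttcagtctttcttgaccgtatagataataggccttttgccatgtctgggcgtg

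Some long loops joined anchors that carry the same sequence. The run below occurred exactly in both anchors, on opposite strands. It is shown because it belongs to the strongest T-47D loop of chromosome 3 (the middle 100 of 356 shared bases), and no base is in capitals.
T-47D chromosome 3 run (100 bases), chr3:195385265-195385364, plus strand, and chr3:197354323-197354422, minus strand: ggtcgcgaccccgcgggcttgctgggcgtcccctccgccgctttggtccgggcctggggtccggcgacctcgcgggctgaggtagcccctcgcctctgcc

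Long loops were 0.23% of the Ishikawa list (interval 0.208% to 0.254%), 1.57% of the T-47D list (1.45% to 1.69%) and 2.45% of the LNCaP list (2.37% to 2.53%). The number of loops fell with distance in every list and continued to fall across the lower limit. In LNCaP 1056 loops spanned 900 kb to 1000 kb and 882 spanned 1000 kb to 1100 kb. The corresponding numbers were 198 and 130 in T-47D, and 135 and 99 in Ishikawa. The share of long loops that spanned less than 1500 kb was 66.7% in T-47D, 75.5% in LNCaP and 81.9% in Ishikawa. The plot of loop spans shows that T-47D departed from a steady fall between 1500 kb and 1800 kb. Of its loops there, 55 (33.1%) joined the 2 histone gene clusters of chromosome 6, against 5 of 439 (1.14%) below 1500 kb.

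**Figure D1:**
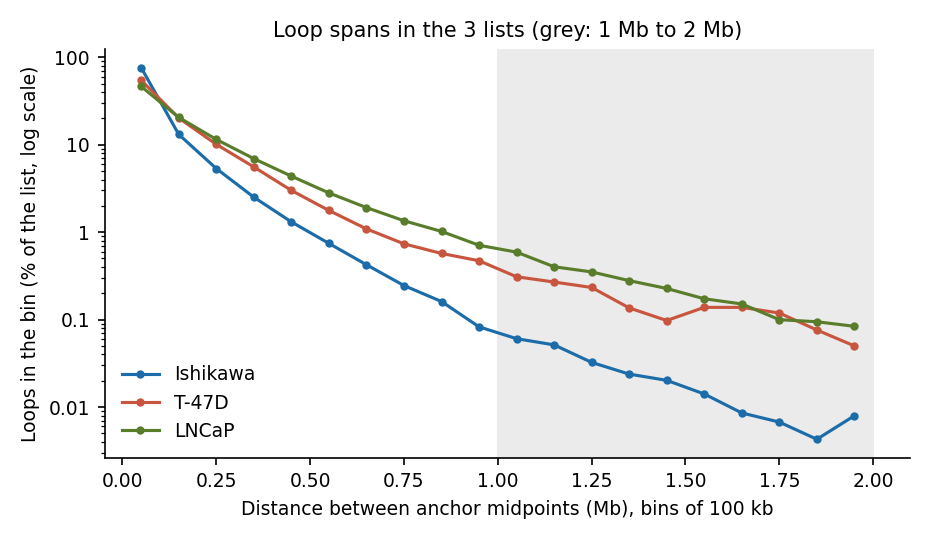
Loops per bin of 100 kb, as a percent of each list on a log axis, against the distance between anchor midpoints in Mb, for Ishikawa (blue), T-47D (red) and LNCaP (green). The grey area marks 1 Mb to 2 Mb, which holds 0.23%, 1.57% and 2.45% of the loops, and the rise in T-47D between 1.5 Mb and 1.8 Mb holds 55 loops between histone gene clusters.

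Read support was low. The median long loop had 3 read pairs in the Ishikawa and T-47D lists, the lowest count that any list kept, and 4 for LNCaP. Loops at that minimum were 89.1%, 61.4% and 50% of the long loops of Ishikawa, T-47D and LNCaP, and only 6, 35 and 331 had 10 read pairs or more. The order of the lists was the same among loops with at least 5 or at least 10 read pairs, but not after thinning. With the lists thinned to the in-loop read pairs of T-47D, long loops were an expected 0.951% of LNCaP and 0.0541% of Ishikawa loops, against 1.57% in T-47D. In Ishikawa, 10 long loops (2.66%) occurred in 2 or more of the 4 parts of its list, against 5.94% of loops of 500 kb to 1 Mb and 56.1% of loops of 5 kb to 20 kb. With a minimum of 3 read pairs in each part, a loop in 2 parts needs 6 or more. Only 11 Ishikawa long loops had that many, so recurrence and read support cannot be told apart in these shares. Chromosome segments where the Ishikawa list was dense, on chromosomes 3, 10 and 12, held 23.7% of its loops and 47.6% of its long loops.

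**Figure D2:**
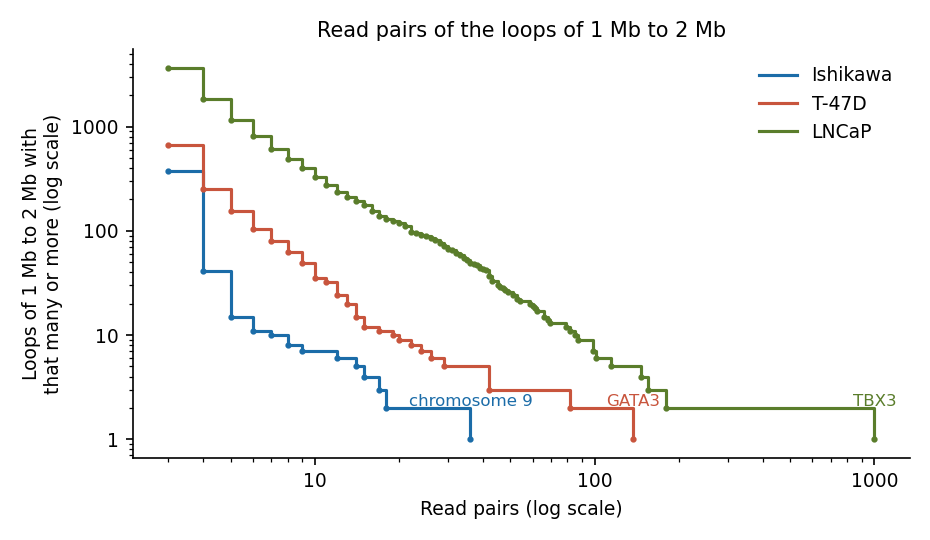
Number of long loops with at least a given count of read pairs, both on log axes, for each list. Ishikawa falls from 376 loops at 3 read pairs to 6 at 10, whereas LNCaP still has 331 at 10, and the strongest loop of each list is marked: 36 read pairs on chromosome 9 in Ishikawa, 137 at GATA3 in T-47D and 1000 at TBX3 in LNCaP.

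The anchors of long loops were mostly used at shorter distances as well, in 97.1% of cases in LNCaP, 95.3% in T-47D and 96.7% in Ishikawa. They were wider than other anchors, with medians of 3.26 kb against 2.59 kb (T-47D), 9.26 kb against 5.09 kb (Ishikawa) and 5.55 kb against 3.13 kb (LNCaP). The lists differed in what the anchors covered. At least 1 anchor lay over a protein-coding promoter (500 bp around a start site) in 80.4% of T-47D long loops, 59.1% of LNCaP and 27.9% of Ishikawa. Both anchors did so in 41.3%, 22.9% and 4.26%. Loops of 500 kb to 1 Mb had a promoter in 75.4% (T-47D), 60% (LNCaP) and 32.7% (Ishikawa). Between the anchors lay a median of 7 genes in T-47D, 4 in LNCaP and 2 in Ishikawa, or 11.6, 7.35 and 3.64 genes per Mb against 6.51 over the genome. Some other anchor was joined to both ends, each by a loop under 1 Mb, in 53.6% of LNCaP, 30.7% of T-47D and 10.4% of Ishikawa long loops. At 500 kb to 1 Mb the shares were 90%, 68.2% and 42.5%. The limit of 1 Mb leaves fewer possible positions for such an anchor in long loops, so these shares cannot be compared directly.

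A protein-coding gene had a long promoter loop in 115 cases in Ishikawa (0.57% of 20163 genes), 601 in T-47D (2.98%) and 1826 in LNCaP (9.06%). Most of these genes had only 1 such loop: 1148 in LNCaP, 454 in T-47D and 101 in Ishikawa. Of the T-47D genes, 226 (37.6%) also had one in LNCaP, which is 12.4% of the LNCaP genes. In all 3 lists these were ALG10, DNM1L, LLPH, NAALADL2, TNK2, TPRG1 and the unnamed gene ENSG00000289747. ALG10 is an enzyme of N-glycan assembly, DNM1L drives mitochondrial fission, and TNK2 is a tyrosine kinase.

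Genes typical of the tissue of each line were compared with the background of all genes. In T-47D, 7 of 17 luminal breast genes had a long promoter loop (41.2%, against 2.98% of all genes): FOXA1, GATA3, KRT19, MYB, PGR, TFAP2A and TRPS1. In LNCaP, 12 of 15 prostate luminal genes did (80%, against 9.06%): FKBP5, FOXA1, GRHL2, HOXB13, KLK2, KLK3, SLC45A3, SPDEF, STEAP1, STEAP2, TMPRSS2 and TRPM8. In Ishikawa, 3 of 12 endometrial genes did (25%, against 0.57%), namely EMX2, HOXA10 and MECOM, and 0 of the 17 luminal breast or the 15 prostate luminal genes. The lists were not confined to 1 line. In LNCaP, 5 of the 17 luminal breast genes had a long promoter loop as well (29.4%, against 9.06%): FOXA1, GREB1, KRT8, SPDEF and TFAP2A, of which FOXA1 and SPDEF are also in the prostate list. HOXA10 of the endometrial list had one in LNCaP, and FOXA1 of the prostate list had one in T-47D. Many of these genes had shorter loops too, and among genes with any promoter loop the shares with a long one were 50% for luminal breast genes in T-47D (6.06% of all looped genes), 41.7% for the same genes in LNCaP and 85.7% for prostate luminal genes there (15.6% of all looped genes). Having a long loop did not mean a large share of long contacts. At the prostate luminal promoters, long loops held from 0.252% (FOXA1) to 7.08% (KLK3) of the read pairs, against 1.21% of the whole LNCaP list. KLK2 and KLK3 shared 1 anchor, and TRPM8 had 1 long loop of 3 read pairs. Of 60 developmental regulators, 3 had a long promoter loop in Ishikawa (5%, against 0.57% of all genes), namely DLX5, MEIS1 and SOX9. In T-47D 5 did (8.33%, against 2.98%), namely ID4, IRX5, KLF4, NR2F2 and TBX3. In LNCaP 7 did (11.7%, near the 9.06% of all genes), among them IRX5, MYC and TBX3. For the cytosolic ribosomal protein genes, 20 of 87 had a long promoter loop in LNCaP (23%), 6 in T-47D (6.9%) and 1 in Ishikawa (1.15%). Among those with any promoter loop the shares were 24.7%, 7.89% and 1.64%, against 15.6%, 6.06% and 0.995% of all looped genes. The T-47D share was thus near that of all looped genes. The zinc finger genes of chromosome 19 stood near the background in LNCaP, with 25 of 249 (10%), and below it in T-47D (1 gene) and Ishikawa (0). Clustered protocadherins had 1 of 53 in LNCaP and 0 in the other lists.

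**Figure D3:**
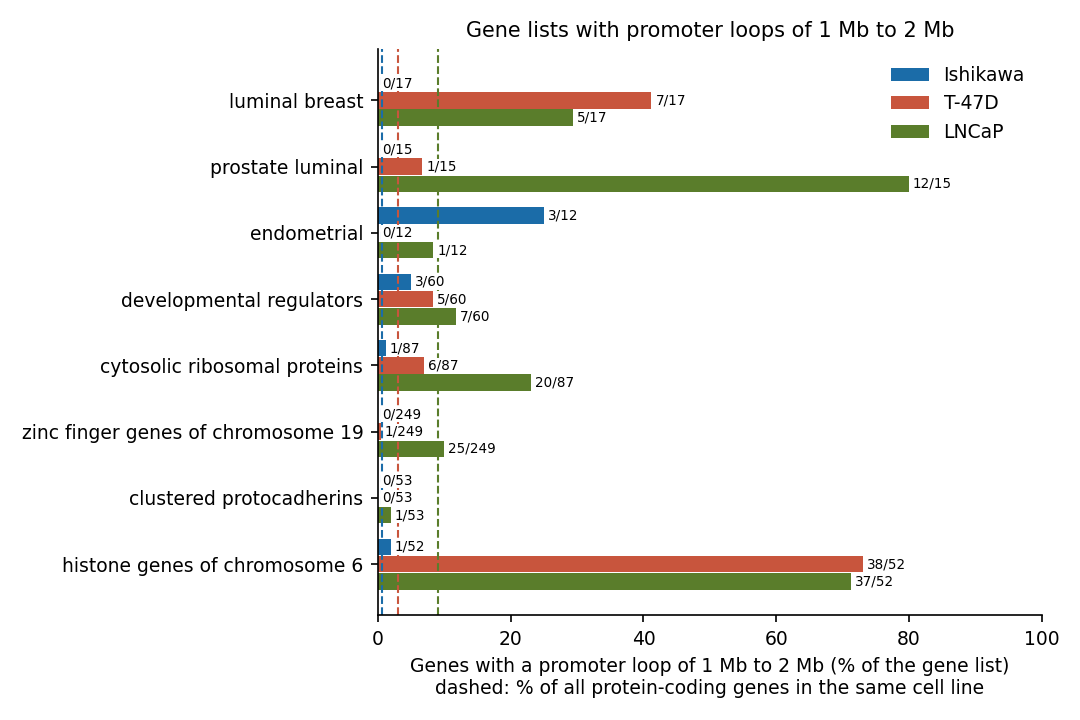
Percent of the genes of each list with a promoter loop of 1 Mb to 2 Mb, from 0, in Ishikawa (blue), T-47D (red) and LNCaP (green), with counts at the bars and dashed lines at 0.57%, 2.98% and 9.06% of all protein-coding genes. The longest bars are prostate luminal genes in LNCaP (12 of 15) and the histone genes of chromosome 6 in T-47D (38 of 52) and LNCaP (37 of 52).

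GATA3 carried the strongest long loops of T-47D. Its promoter anchor at chr10:8091348-8098536 was joined to an intergenic anchor at chr10:9238406-9247314 by 137 read pairs over 1148 kb. A further anchor over the promoter (chr10:8099042-8102049) was joined to the same distal anchor by 82 read pairs, and an intronic anchor (chr10:8103302-8105410) by 42. The distal anchor lay 1121 kb from GATA3, which was also the nearest protein-coding gene, and no other gene lay wholly between. The GATA3 loops were many as well as strong. In total 21 long loops with 425 read pairs left the GATA3 promoter, of which 20 ran downstream, to partners that were all intergenic. They held 50.1% of the 849 read pairs of all loops that left the promoter. Ishikawa and LNCaP had 0 anchors at either end of the 3 strongest.

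NFIB, a nuclear factor I transcription factor, also had 21 long loops in T-47D, with 105 read pairs. All ran downstream, to anchors in or nearest to MPDZ (10 loops), TYRP1 (6) and LURAP1L (5), the strongest with 12 read pairs over 1243 kb to an anchor 31.2 kb from MPDZ. They held 97.2% of the read pairs that left the NFIB promoter, against 1.76% at FOXA1, a pioneer factor of luminal cells. The 4 FOXA1 long loops of T-47D reached the promoters of GEMIN2 (7 read pairs), RALGAPA1, BRMS1L and PNN (3 each). RARA, the retinoic acid receptor alpha gene, had 9 long loops, of which 6 ended in or nearest to a keratin gene. The strongest, with 11 read pairs over 1217 kb, ended 3.5 kb from KRT19, a luminal keratin gene, and 1 loop of 4 read pairs joined the RARA and KRT19 promoters. PGR, the progesterone receptor gene, had 2 long loops, of 4 read pairs to an anchor 27.5 kb from MMP20 and of 3 to the promoter of BIRC2, an inhibitor of apoptosis. BCL6, a transcriptional repressor, and TPRG1 were joined promoter to promoter by 5 loops. The strongest 2 had 9 read pairs each, over 1356 kb and 1362 kb.

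TBX3, a T-box repressor of transcription, carried the strongest long loop of all lists. In LNCaP its promoter anchor (chr12:115104450-115124347) was joined by 1000 read pairs to an intergenic anchor at chr12:116186785-116203293, which lay 1081 kb away and 192 kb from MED13L. All 15 TBX3 long loops of LNCaP ran upstream, and their 1189 read pairs were 58.5% of the 2033 that left the promoter. The next strongest had 41 read pairs, so the distribution rested on 1 pair of anchors. T-47D had 2 TBX3 long loops of 3 read pairs each into the same interval, at 1168 kb and 1233 kb, and 0 anchors at the distal end of the LNCaP loop. Ishikawa had anchors at both ends of the LNCaP loop, with 0 loops listed between them.

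IRX5 is a homeobox gene of the Iroquois family whose known distant contacts include the introns of FTO, an RNA demethylase gene. All its long loops ran upstream, in both lines that had any. In LNCaP there were 14 with 81 read pairs, of which 10 ended in FTO and the other 4 near RBL2 and AKTIP. The strongest had 10 read pairs each and reached the shared promoter region of FTO and RPGRIP1L (1225 kb) and to an FTO intron (1153 kb). In T-47D there were 4, of 3 to 4 read pairs, all ending in FTO, over 1046 kb to 1228 kb.

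The 33 long loops of KLK3 in LNCaP were spread over many partners. The anchor (chr19:51337325-51414040) was 76.7 kb wide and covered the promoters of KLK15, KLK2, KLK3 and KLK4, which therefore cannot be told apart. Its partners lay over promoters in 29 of 33 cases, 21 on the upstream side of KLK3 and 12 downstream. A loop with 13 read pairs reached the promoters of RRAS and SCAF1. All 33 together held 208 read pairs, 7.08% of the 2936 at this anchor. Other prostate luminal genes gave smaller shares, from 0.252% at FOXA1 and 0.833% at HOXB13 to 2.73% at FKBP5 and 3% at TRPM8. The share over the whole LNCaP list, 1.21%, lay between these values. SPDEF, an epithelial ETS factor, and FKBP5, an androgen-induced cochaperone, were joined promoter to promoter by 7 read pairs over 1176 kb. The strongest long loops of STEAP2, a metalloreductase gene, had 11 read pairs each and ended in its relative STEAP4, 1947 kb and 1937 kb away.

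**Figure D4:**
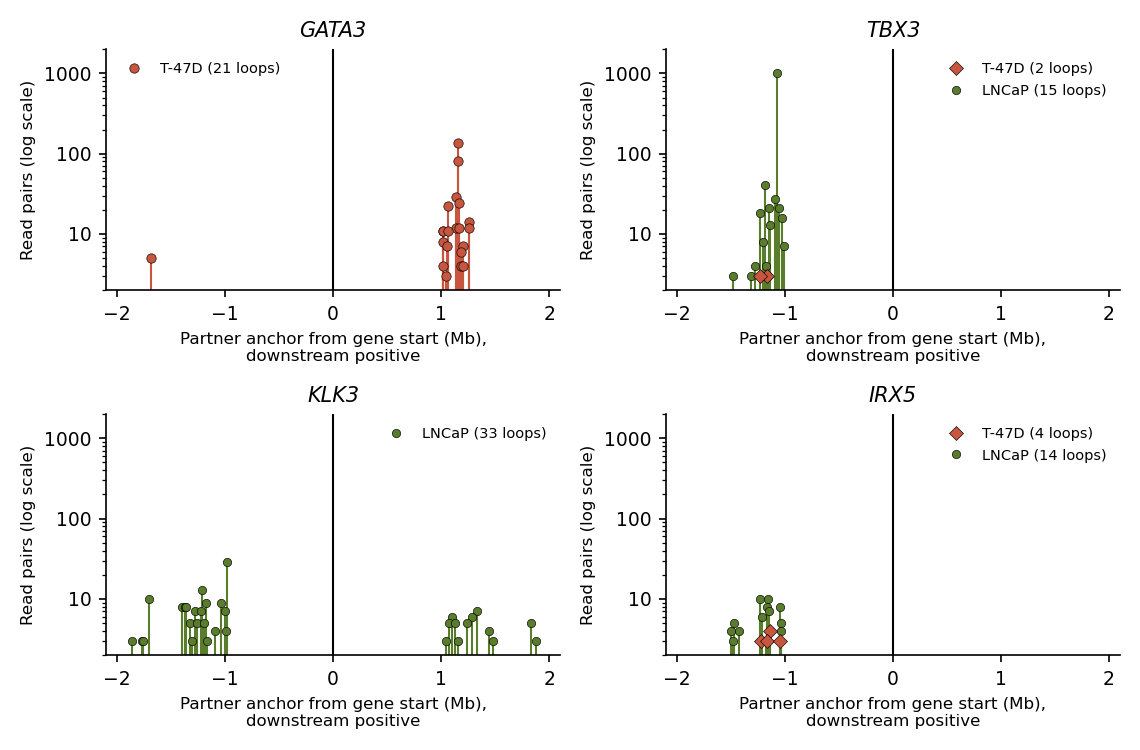
Read pairs (log axis) of the long loops of 4 genes against the distance of the partner anchor from the gene's start in Mb, with downstream positive; T-47D in red and LNCaP in green. Partners of GATA3 gather just over 1 Mb downstream, those of TBX3 and IRX5 lie upstream only, and those of KLK3 lie on both sides.

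The densest LNCaP bins of 1 Mb lay on chromosome 3, around NAALADL2, a gene of the glutamate carboxypeptidase family, and TBL1XR1, a subunit of nuclear receptor corepressor complexes. By loop centre, the bins chr3:174000001-175000000, chr3:175000001-176000000 and chr3:177000001-178000000 held 132, 148 and 74 long loops, against 4, 7 and 8 in T-47D and 5, 6 and 10 in Ishikawa. An anchor within NAALADL2 (chr3:175189402-175218577) had the most long partners of any anchor, 42, with 1025 read pairs. It was joined to an anchor near NLGN1 by 180 read pairs, to the NAALADL2 promoter by 114 and to an intergenic anchor at chr3:176471342 by 101. Elsewhere in LNCaP, 28 long loops left the promoter of LUZP2 (up to 49 read pairs), 26 that of RERE (up to 23), 25 that of NCAM2 (up to 21) and 24 that of MIA3 (up to 10). RERE is a nuclear corepressor gene, and 9 of its 26 loops ended over promoters, such as that of CLSTN1. For LUZP2 and NCAM2, which lie beside gene deserts, 26 of 28 and 25 of 25 loops ended in intergenic anchors. NRP1, a semaphorin receptor gene, and PARD3, a cell polarity gene, were joined promoter to promoter by 66 read pairs over 1001 kb.

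The replication-dependent histone genes of chromosome 6, which supply histones for DNA replication and come together in the histone locus body, formed a large group of long promoter to promoter loops. The 52 genes lie in a lower cluster of 31 genes (chr6:25723625-26285866) and an upper cluster of 21 (chr6:27093676-27861669), with 9 other protein-coding genes between. In T-47D, 38 of the 52 genes (73.1%, against 2.98% of all genes) and in LNCaP 37 (71.2%, against 9.06%) had a long promoter loop, and in Ishikawa 1 did, H1-6. Among histone genes with any promoter loop the shares were 100% in T-47D and 97.4% in LNCaP. The shares of all looped genes were 6.06% and 15.6%. Neighbouring genes shared anchors, so they were not counted independently. The lower and upper promoters lay under 16 and 8 anchors in T-47D and 10 and 9 in LNCaP. The clusters were joined by 65 long loops with 434 read pairs in T-47D and 52 with 1476 read pairs in LNCaP. These were 23.9% of the 272 long promoter to promoter loops of T-47D and 6.2% of the 839 of LNCaP, and held 37.6% and 29.8% of their read pairs.

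The strongest histone loop of T-47D, with 26 read pairs, joined H4C5 to the anchor over H2AC13, H2BC13 and H3C10 over 1573 kb. The strongest of LNCaP, with 155, spanned 1752 kb. It joined an anchor over H2AC4, H3C1, H3C2, H4C1 and HIST1H4B to one over H2AC13, H2AC14, H2BC13, H2BC14 and H3C10. An anchor over the histone genes H2AC7, H3C4 and H4C5, which cannot be told apart, was joined to the same place by 147. Of the pairs that the histone anchors of the clusters could form at any distance, 56.2% of 128 were joined in T-47D and 73.3% of 90 in LNCaP. The Ishikawa list had 14 anchors over promoters of the lower cluster and 3 over the upper one, and 0 of these 42 pairs were joined.

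**Figure D5:**
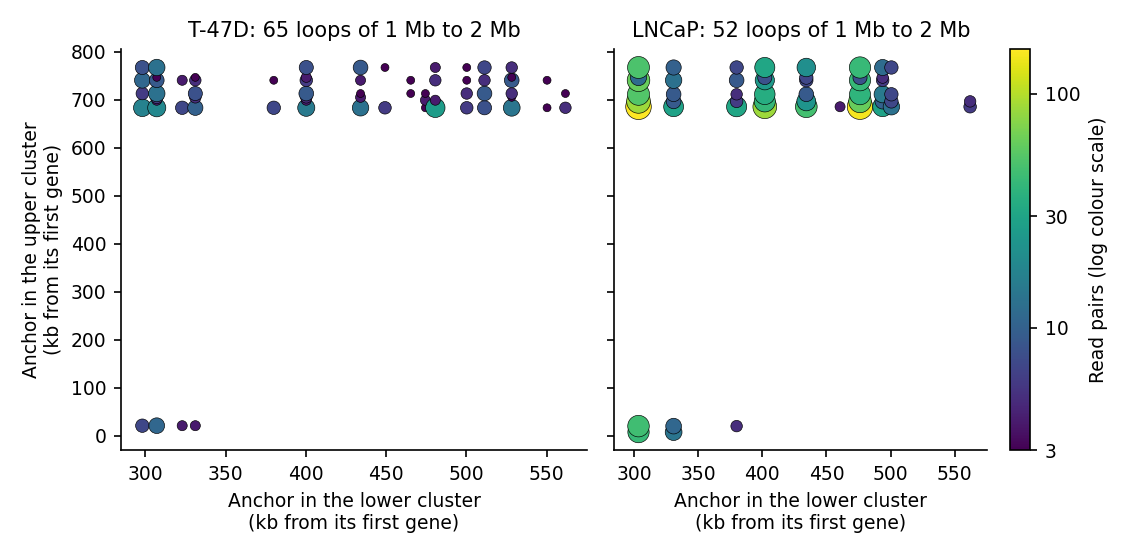
Long loops between the histone gene clusters of chromosome 6 in T-47D (65 loops) and LNCaP (52), placed by the distance of the lower and the upper anchor from the first gene of their cluster in kb. Point size and colour (log scale) give read pairs, which reach 26 in T-47D and 155 in LNCaP. The anchor over H2AC13, H2BC13 and H3C10 forms the row with the largest points.

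In the RefSeq promoter table, CCAAT occurred in 44 of 50 promoters of the histone genes (88%) and TATAAA in 34 (68%), against 34.6% and 11.5% of all 35093 promoters of the same length, with 46 of the 52 genes matched. For histone genes with a long loop, the shares were 86.1% and 66.7% in T-47D and 91.4% and 71.4% in LNCaP. For all genes with a long loop, CCAAT was found in 38.5% of promoters in T-47D and 39% in LNCaP, and TATAAA in 9.93% and 7.69%. A match of letters is not a bound site.

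The strongest Ishikawa long loops were of another kind. The first had 36 read pairs and joined the intergenic anchors chr9:66467394-66486793 and chr9:68413577-68426768 over 1943 kb, 958 kb and 426 kb from the nearest protein-coding genes. The next 4, with 18, 17, 15 and 14 read pairs, all shared the anchor chr15:20845273-20881056, which was 98.2 kb from GOLGA6L6, and reached anchors 105 kb to 144 kb from POTEB3, over 1039 kb to 1074 kb. These regions lie by the centromeres and carry duplicated gene families. The chromosome 15 loops were not confined to Ishikawa. Those with 17 and 14 read pairs overlapped, at both anchors, a LNCaP loop of 19 read pairs. By loop centre, the bin chr15:21000001-22000000 held 10 long loops in Ishikawa, 8 in LNCaP and 2 in T-47D. Of the 6 Ishikawa long loops with 10 read pairs or more, 5 spanned an assembly gap of 50 kb or more, against 7.71% of all Ishikawa long loops, 2.28% in T-47D and 3.36% in LNCaP. The sixth joined the promoters of MEIS1, a homeobox gene, and C1D, a cofactor of the RNA exosome, by 12 read pairs over 1602 kb, and was seen in 3 of the 4 parts. NDST1, a heparan sulfate enzyme gene, and FAT2, an atypical cadherin gene, were joined by 7 read pairs over 1111 kb. Of the endometrial genes, MECOM had 3 long loops and EMX2 and HOXA10 had 1 each, all of 3 read pairs. SOX9 had 1 of 4 read pairs to an intergenic anchor 1355 kb upstream.

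Anchors that shared an exact run of 50 bases made up 3.99% of Ishikawa long loops (interval 2.43% to 6.48%), 1.67% in T-47D (0.936% to 2.97%) and 3.5% in LNCaP (2.95% to 4.14%). At 500 kb to 1 Mb the shares were 3.84%, 0.667% and 2.15%. In T-47D the loop with 29 read pairs between chr3:195383809-195385638, near MUC20, and an anchor at chr3:197354045, near RUBCN, had a common run of 356 bases, whose middle is printed above. Among the 12 strongest T-47D loops, the other 11 had no common run longer than 49 bases, and the run was 17 bases for the strongest GATA3 loop and 24 bases for the TBX3 loop of LNCaP. The part of repeated sequence in the read counts was not tested.

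Few long loops could be oriented by CTCF motifs. The core consensus occurred 0.846 times per 100 kb over the genome, and 1.2 (Ishikawa), 2.48 (T-47D) and 1.37 (LNCaP) times per 100 kb in anchors of long loops, against 1.01, 3.23 and 1.66 in other anchors. Neither anchor held a match in 78.5% of Ishikawa, 82.8% of T-47D and 80% of LNCaP long loops. Where each anchor held it on 1 strand only, the motifs pointed toward each other in 3 of 3 Ishikawa, 1 of 3 T-47D and 10 of 44 LNCaP long loops. The LNCaP share was 22.7% (12.8% to 37%), beside 18.2% that pointed apart and 59.1% in tandem, and at 500 kb to 1 Mb 32% of 103 LNCaP loops pointed toward each other (23.8% to 41.6%), so that the intervals overlap.

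Few long loops recurred in another list. Both anchors overlapped the anchors of 1 LNCaP loop for 92 of the 658 T-47D long loops (14%, interval 11.5% to 16.8%), against 18.2% at 500 kb to 1 Mb and 45.6% at 20 kb to 100 kb. For 358 of the 658, both anchors overlapped some LNCaP anchor, and 25.7% of those were joined there. Of the 376 Ishikawa long loops, 6 (1.6%) were found in LNCaP and 1 (0.266%) in T-47D. The loops found in both T-47D and LNCaP were led by the histone pairs, with up to 26 read pairs in T-47D and up to 155 in LNCaP. Outside that cluster, a loop from the TBL1XR1 promoter to an intron of KCNMB2 had 8 and 27 read pairs over 1188 kb, and one between the promoters of YARS2 and ALG10 had 9 and 6 over 1267 kb.

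The only long loop found in all 3 lists joined a NAALADL2 promoter to an intergenic region downstream, over 1078 kb in Ishikawa. This rests on the overlap rule of 1 bp. With 50% of both anchors required, 0 of the 376 Ishikawa long loops were found in T-47D. The NAALADL2 loop was then not found in all 3 lists. This loop had 7 read pairs in Ishikawa (anchors chr3:174565068-174589762 and chr3:175649772-175660378), 3 in T-47D and 18 in LNCaP. The T-47D distal anchor, chr3:175658685-175660319, was 1.64 kb wide and held both CTCF matches shown above, on the minus strand.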

How the data were processed

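H3K27ac HiChIP was measured in 7 samples. Per the methods of the study, the authors aligned read pairs to hg19 with HiC-Pro, called loops with hichipper, removed loops under 3 read pairs or failing a false discovery filter, and combined DMSO and E2 samples of Ishikawa. The deposited values are counts of read pairs per pair of anchors, not normalized. Rows of the Ishikawa list, which holds 4 parts not assigned to samples, were summed per anchor pair. Spans were taken between anchor midpoints. Promoters were 500 bp around protein-coding start sites of GENCODE release 44 lifted to GRCh37. A loop was found in another list when both anchors overlapped those of 1 loop there by 1 bp. CTCF matches were exact to a core consensus of 12 positions on both strands. Shares carry 95% Wilson intervals, and no test across genes was possible with 1 list a line. Thinning drew each list down to the in-loop read pairs of T-47D, the lowest of the 3.

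Members and gene lists were chosen with earlier results of these data known. Named loops were the strongest of each list, overall and between promoters, and the longest. Named genes were the list members with a long loop, those with the most long loops and those shared between lists. Scripts used Python 3.11, pandas 2.3.3, numpy 2.4.6, scipy 1.17.1 and matplotlib 3.10.9, and were tested on simulated data. Alternatives were the read pair minimum, thinning, anchor edges, dense segments, parts, promoter window, overlap and motif. Some items are not reported here.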

Additional observations from a re-analysis of the deposited data

Results flagged for a closer look

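Signals lay outside the span window. The Ishikawa list held 144 loops over 2 Mb (0.0881% of its loops, 744 read pairs), the T-47D list 238 (0.566%, 918 read pairs) and the LNCaP list 0. The LNCaP list still held 125 loops of 1900 kb to 2000 kb and stopped at 2 Mb, so its 0 cannot be set against the other lists. The strongest of Ishikawa had 77 read pairs in all 4 parts and joined 2 places on chromosome 1 that lie 218 Mb apart, near IRF2BP2 at one end. In T-47D the strongest had 44 read pairs over 19.3 Mb and reached the promoter of LRRC37A3 on chromosome 17. In both lists the promoter of ZNF595 was joined to an anchor near DUX4 at the opposite end of chromosome 4, over 191 Mb, with 19 read pairs for Ishikawa and 28 for T-47D. The T-47D list also held 70 rows that joined 2 different chromosomes, which no comparison used.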

How the results depend on the processing

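The percent of loops spanning 1 Mb to 2 Mb fell with a higher minimum of read pairs. At 5 read pairs or more it was 0.0224% (Ishikawa), 0.691% (T-47D) and 1.34% (LNCaP), and at 10 or more 0.0217%, 0.39% and 0.811%. Thinning to the list with the fewest read pairs gave 0.0541% in Ishikawa and 0.951% in LNCaP, so that T-47D stood first. Without the dense segments of chromosomes 3, 10 and 12 it was 0.158% in Ishikawa and 2.26% in LNCaP. Ishikawa gave 0.186% without part 1, 0.18% without part 4 and 0.0181% for loops in 2 or more parts. Without loops whose anchors share a run of 50 bases, an alternative chosen after seeing the data, LNCaP gave 2.37%. With 10 read pairs or more, long loops had a promoter in 16.7% in Ishikawa and 48.6% in LNCaP. The genes with a long promoter loop were then 2, 33 and 142, and thinning gave an expected 8.49 in Ishikawa and 181 in LNCaP. Requiring 50% overlap of both anchors, 0% of Ishikawa long loops were found in T-47D, 0.532% in LNCaP, and 3.19% of T-47D ones in LNCaP. With 10 read pairs or more these were 0%, 33.3% and 31.4%. Convergent CTCF motifs in LNCaP were 66.7% of 3 loops with a longer consensus and 0% of 2 at 10 read pairs or more, and Ishikawa and T-47D had no loop left under either. The other 16 values moved by less than their 95% interval, or for counts of genes by less than 1.5 times.

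No paired analysis was possible because each list pools its samples and the parts of the Ishikawa list are not assigned to samples. Most long loops rest on 3 or 4 read pairs. Absence from a list says only that no loop was kept there, and does not give a count. Loops under 3 read pairs or failing the false discovery filter were removed, and a pair lacking an anchor at either end is not listed. Causes were not tested.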

Other observations

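In LNCaP, 16 long loops with 157 read pairs left the promoter of ADAMTS1, a secreted metalloprotease gene. They all ran upstream to intergenic partners, the strongest with 49 read pairs over 1700 kb, and held 91.8% of the 171 read pairs that left this promoter.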
